A study of Rattus norvegicus with 6 samples.

Results

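Fatty acid synthesis, elongation and desaturation were followed through 10 genes, Srebf1, Acly, Me1, Acaca, Fasn, Elovl5, Elovl6, Scd1, Fads1 and Fads2, selected by symbol. All 10 of the 10 symbols were among the 37183 symbols of the deposited table. By the submitters' description, the cells were primary cultures of rat hippocampal astrocytes and hippocampal neurons. Their total RNA was sequenced after ribosomal RNA depletion. Each culture type was profiled as an untreated control given saline (0 h), after 6 h of 200 nM insulin and after 12 h of it. Every group was 1 library. All cultures had received new medium 4 h before treatment. That medium held 2% FBS and 5 mM glucose for the astrocytes, and was serum-free with insulin-free B27 for the neurons. A control was taken at 0 h, so insulin and the additional hours in that medium cannot be told apart. The sources used here do not give the strain, the age of the animals or whether animals were pooled.

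Cells build fatty acids from citrate. ATP citrate lyase (Acly) splits it to acetyl-CoA, acetyl-CoA carboxylase (Acaca) makes malonyl-CoA, and fatty acid synthase (Fasn) joins these units into palmitate with NADPH that malic enzyme (Me1) helps to supply. Elongases of the Elovl family lengthen the chains, stearoyl-CoA desaturase (Scd1) makes monounsaturated acids, and the front-end desaturases Fads1 and Fads2 act with Elovl5 on polyunsaturated acids. In liver and adipose tissue insulin raises these genes through SREBP1c, a transcription factor encoded by Srebf1 that is cut from a membrane-bound precursor. In brain, glia are a known site of fatty acid synthesis for myelin and for supply to neurons.

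Levels are FPKM (fragments per kilobase, corrected for library size and transcript length, so that levels of different genes can be compared), taken back from deposited log2 values that the authors had quantile-normalised over the 6 libraries. A difference is a log2 difference between 2 libraries on that deposited scale. It counts as higher or lower when it reached 1 (2-fold) in a gene at 1 FPKM or more in either library. The depth is unknown, as the values are not counts, and without replicates no difference within a culture has an error or a test. The number of symbols with a value was 22891 to 23898 in the astrocyte-labelled and 23927 to 25528 in the neuron-labelled libraries. The labels were checked against defining markers in the controls. Of 10 astrocyte markers 9 were lower in the astrocyte-labelled control, where they summed to 53.0 FPKM, against 369 FPKM in the neuron-labelled control. Of 9 oligodendrocyte-lineage markers 2 were higher and 6 lower there, with 1 (Olig2) blank in the astrocyte-labelled control, and sums of 7.47 and 154 FPKM. Neuron markers summed to 5.12 and 68.2 FPKM. Of the 10, 8 had a value in both controls and all 8 were lower in the astrocyte-labelled control. Pericyte and smooth muscle markers summed to 425 and 4.52 FPKM and fibroblast markers to 66.2 and 0.0121 FPKM. Microglia and endothelial markers summed to less than 0.05 FPKM in each control. Thus 9 of the 10 astrocyte markers went against the astrocyte label. The cultures are therefore named by their labels alone, as astrocyte-labelled and neuron-labelled.

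RefSeq promoter windows, from 250 bases before to 50 bases after a transcription start in build GRCr8, were found for 7 of the 10 genes, 8 windows in all. They are shown for the regulator Srebf1 at both of its listed starts, for Acly as a synthesis-pathway gene carrying CCAAT and GC boxes, and for Scd1, the gene with the largest insulin difference. Each is written 5′ to 3′ on the strand of the gene, with matches to the searched motifs in capitals. Positions are those of GRCr8, on the minus strand in every case. They are Srebf1 start 1 at chr10:45529115-45529414, Srebf1 start 2 at chr10:45518961-45519260, Acly at chr10:85963582-85963881 and Scd1, which RefSeq calls Scd, at chr1:253231682-253231981.
Srebf1 start 1: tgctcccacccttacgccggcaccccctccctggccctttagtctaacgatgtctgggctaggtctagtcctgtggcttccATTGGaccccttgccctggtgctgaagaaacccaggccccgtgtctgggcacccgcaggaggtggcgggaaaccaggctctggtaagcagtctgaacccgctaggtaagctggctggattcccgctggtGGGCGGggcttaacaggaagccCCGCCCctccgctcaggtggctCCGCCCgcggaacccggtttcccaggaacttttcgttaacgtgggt
Srebf1 start 2: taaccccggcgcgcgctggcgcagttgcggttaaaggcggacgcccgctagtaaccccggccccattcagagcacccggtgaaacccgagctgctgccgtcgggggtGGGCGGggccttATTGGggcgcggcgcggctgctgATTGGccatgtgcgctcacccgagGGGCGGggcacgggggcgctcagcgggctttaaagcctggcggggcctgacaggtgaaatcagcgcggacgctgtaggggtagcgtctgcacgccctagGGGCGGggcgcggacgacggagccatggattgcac
Acly: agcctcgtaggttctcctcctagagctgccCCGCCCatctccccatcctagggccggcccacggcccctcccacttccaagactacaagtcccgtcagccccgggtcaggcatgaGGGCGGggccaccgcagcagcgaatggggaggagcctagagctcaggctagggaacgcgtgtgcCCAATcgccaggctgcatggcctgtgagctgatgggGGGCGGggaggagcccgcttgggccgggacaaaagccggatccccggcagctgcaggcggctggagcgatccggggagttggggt
Scd1: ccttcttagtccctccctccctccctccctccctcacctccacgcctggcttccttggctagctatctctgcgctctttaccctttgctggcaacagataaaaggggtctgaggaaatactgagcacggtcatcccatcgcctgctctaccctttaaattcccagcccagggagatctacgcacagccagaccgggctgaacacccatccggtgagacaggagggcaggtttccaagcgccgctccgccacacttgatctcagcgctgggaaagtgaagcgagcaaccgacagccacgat

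The motifs were searched on both strands: a sterol regulatory element (TCACNCCAC, the kind of site SREBPs bind), the E-box CACGTG, the CCAAT box (CCAAT, bound by NF-Y) and the GC box (GGGCGG, bound by Sp1-type factors). No match in these windows overlapped another. The GC box was in 6 of the 8 windows and in 33.1% of all 33469 RefSeq windows. The CCAAT box was in 5 of the 8 and in 37.5% of all. Srebf1 start 1 held 1 CCAAT box and 3 GC boxes, and start 2 held 2 CCAAT boxes and 3 GC boxes. Acly held 1 CCAAT box, 71 bases before the start, and 3 GC boxes. Me1 held 5 GC boxes, and the only E-box was 212 bases before the start of Elovl5, against 6.42% of all windows with one. No sterol regulatory element of this spelling was in the 8 windows, against 1.12% of all, and the Scd1 window held none of the 4 motifs. These are matches of letters in a short window, and the deposited row of Srebf1 does not separate its starts.

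In the astrocyte-labelled libraries Fasn and Fads1 were the most abundant of the 10 genes at all 3 times, and in the neuron-labelled libraries Srebf1 and Fads1 were. The summed level of the 10 was 20.2, 24.6 and 25.0 FPKM at 0, 6 and 12 h in the astrocyte-labelled cultures and 81.2, 77.1 and 85.1 FPKM in the neuron-labelled cultures. Srebf1 alone was 44.0 of the 81.2 FPKM in the neuron-labelled control. At the other end Me1, Acaca and Elovl6 were below 1 FPKM in all 6 libraries and entered no count. The other 7 were at 1 FPKM or more in every library except Scd1 in the astrocyte-labelled control.

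**Figure D1:**
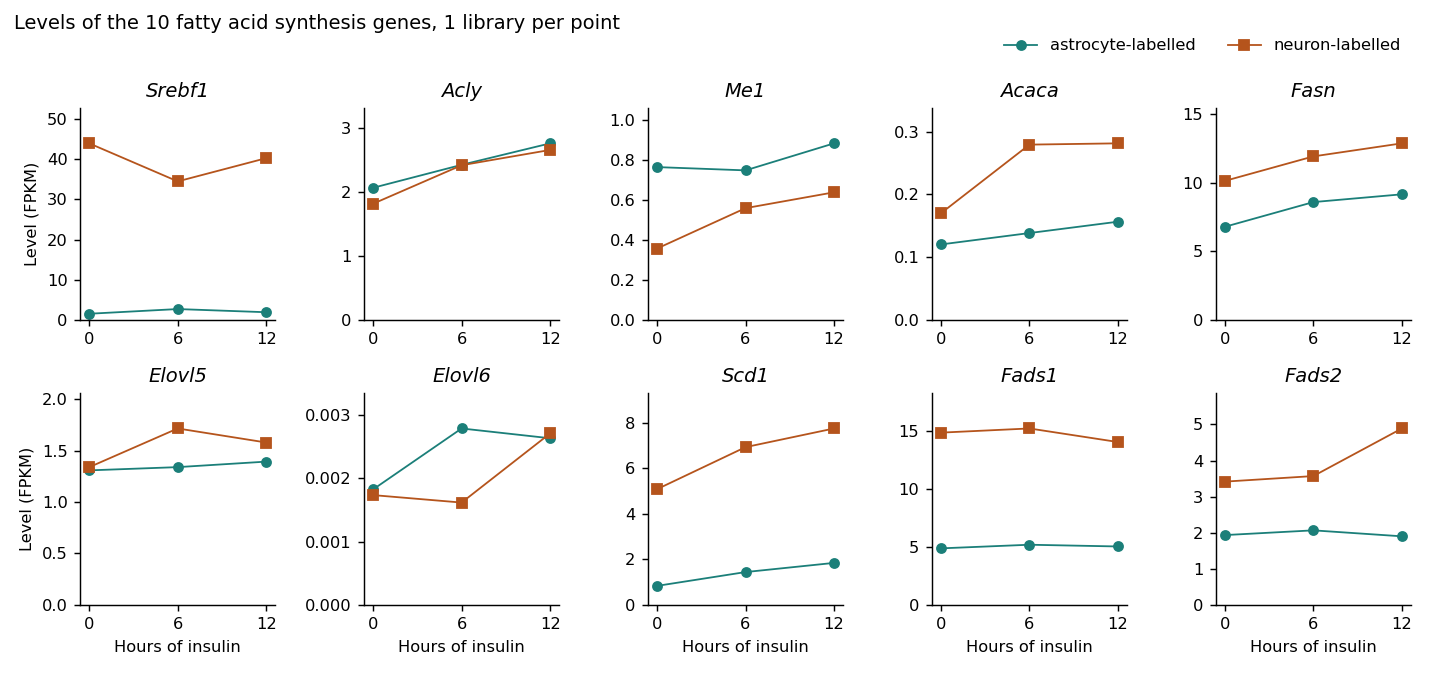
Level in FPKM (linear axis from 0, scaled per gene) of each of the 10 genes against hours of insulin, with the control at 0 h. Each point is 1 library, circles astrocyte-labelled and squares neuron-labelled, so no error can be drawn. Srebf1 lies between 34.5 and 44.0 FPKM in the neuron-labelled libraries and between 1.48 and 2.65 FPKM in the astrocyte-labelled ones, and Elovl6 stays below 0.003 FPKM.

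Srebf1, the regulator, lay on opposite sides of its control in the 2 cultures. In the astrocyte-labelled libraries it was at 1.48, 2.65 and 1.86 FPKM at 0, 6 and 12 h. It was highest at 6 h, with differences from the control of 0.84 at 6 h and 0.33 at 12 h, neither of which reached 2-fold. In the neuron-labelled libraries it was at 44.0, 34.5 and 40.3 FPKM, lowest at 6 h, with differences of -0.35 and -0.13. Between 12 h and 6 h Srebf1 differed by -0.51 in the astrocyte-labelled and by 0.22 in the neuron-labelled cultures. In each, the 12 h library lay nearer to the control than the 6 h library did, with 1 library per time. The 6 h difference in the astrocyte-labelled cultures was exceeded by 101 of 6206 genes compared. In the neuron-labelled cultures 6.1% of 6610 genes had a lower difference at 6 h than Srebf1. Oligodendrocyte-lineage markers in the neuron-labelled libraries summed to 154, 143 and 147 FPKM at 0, 6 and 12 h, lowest at 6 h like Srebf1, and astrocyte markers to 369, 384 and 344 FPKM. In the astrocyte-labelled libraries these sums were 7.47, 7.31 and 6.47 FPKM for the first list and 53.0, 59.7 and 60.4 FPKM for the second. Sums are carried by their most abundant members, and single markers moved otherwise. Some markers with a value at all times in the astrocyte-labelled libraries were highest at 6 h like Srebf1. They were 7 of 10 astrocyte, 2 of 8 oligodendrocyte-lineage and 3 of 6 neuron markers. The share was 37.7% of 6360 genes that reached 1 FPKM there, a floor not applied to the markers. Of the astrocyte markers highest at 6 h, Aqp4, Aldh1l1, Slc1a2 and Slc1a3 were below 1 FPKM in all of these libraries. Gfap was at 6.23, 12.4 and 8.45 FPKM at 0, 6 and 12 h and Nefl, a neuron marker, differed from its control by 1.01 at 6 h and -0.04 at 12 h. Aqp4 was at 0.0985, 0.212 and 0.142 FPKM and Olig1 at 0.0138, 0.105 and 0.0252 FPKM. All 4 of these markers, like Srebf1, were more than 10 times higher in the neuron-labelled control. Aqp4 and Olig1 stayed below 1 FPKM in the astrocyte-labelled libraries. Some other markers more than 10 times higher in the neuron-labelled control were not highest at 6 h in the astrocyte-labelled libraries. There Glul was at 5.32, 4.20 and 3.29 FPKM, Cnp at 3.52, 3.46 and 2.84 FPKM and Tubb3 at 0.532, 0.485 and 0.480 FPKM. In the neuron-labelled libraries 3 of 9 oligodendrocyte-lineage markers and 0 of 10 astrocyte markers were lowest at 6 h, against 16.5% of 6771 genes. The floor was again applied to the genes alone, and Sox10, a marker lowest at 6 h, was below 1 FPKM there. The part of these markers in the Srebf1 differences was not tested. In a bulk library, fewer cells of a type and less RNA per cell cannot be told apart.

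Acly, which supplies cytosolic acetyl-CoA, was at close levels in the 2 cultures. It was at 2.06, 2.42 and 2.76 FPKM at 0, 6 and 12 h in the astrocyte-labelled libraries and at 1.81, 2.41 and 2.65 FPKM in the neuron-labelled ones. In both it was lowest in the control and highest at 12 h. The differences from the control were 0.23 and 0.42 in the astrocyte-labelled and 0.41 and 0.55 in the neuron-labelled cultures, none 2-fold. Me1, a source of cytosolic NADPH, was at 0.766, 0.749 and 0.885 FPKM in the astrocyte-labelled libraries and at 0.357, 0.560 and 0.639 FPKM in the neuron-labelled ones. Its differences of 0.65 and 0.84 in the neuron-labelled cultures stand beside -0.03 and 0.21 in the astrocyte-labelled cultures, all of them between levels under 1 FPKM.

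Acaca and Fasn carry the committed step and the synthesis itself. Acaca was at 0.120, 0.138 and 0.156 FPKM at 0, 6 and 12 h in the astrocyte-labelled libraries, near the middle of all symbols with a value there (percentiles 45.3, 46.9 and 48.4). In the neuron-labelled libraries it was at 0.170, 0.280 and 0.282 FPKM, with both insulin libraries above the control, by 0.72 and 0.73. These levels are low, so the size is given as a description. Fasn was at 6.78, 8.58 and 9.15 FPKM in the astrocyte-labelled libraries and at 10.1, 11.9 and 12.9 FPKM in the neuron-labelled ones. Both series were lowest in the control and highest at 12 h, with differences of 0.34 and 0.43 in the astrocyte-labelled and 0.23 and 0.35 in the neuron-labelled cultures. Per length, Fasn stood at 42.6 to 62.0 times the level of Acaca over the 6 libraries, and at 3.29 to 5.59 times that of Acly. Whether the annotation behind the table covers the main transcripts of Acaca and Elovl6 could not be checked, so the ratio to Acaca compares the deposited rows and may not be that of the enzymes' transcripts.

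The elongases differed widely in level. Elovl5, which lengthens polyunsaturated chains, was at 1.31, 1.34 and 1.39 FPKM in the astrocyte-labelled libraries at 0, 6 and 12 h and at 1.34, 1.72 and 1.58 FPKM in the neuron-labelled ones. Its differences were 0.03 and 0.09 in the astrocyte-labelled cultures, no larger than the median of all genes, and 0.36 and 0.24 in the neuron-labelled cultures. Elovl6, which lengthens palmitate, was at 0.00183, 0.00279 and 0.00263 FPKM in the astrocyte-labelled libraries and at 0.00174, 0.00162 and 0.00271 FPKM in the neuron-labelled ones. These levels lay between percentiles 5.0 and 8.7 of the symbols with a value in their libraries, and no direction is read from them. Of the other elongases, Elovl1 was the most abundant in the astrocyte-labelled libraries, at 7.02, 8.43 and 8.82 FPKM, against 2.68, 2.63 and 3.11 FPKM in the neuron-labelled ones. Elovl2 and Elovl4, which make very long polyunsaturated chains, were at 2.20 to 2.99 FPKM and at 1.27 to 1.80 FPKM in the neuron-labelled libraries, lowest in the control. In the astrocyte-labelled libraries they were below 0.2 FPKM. Elovl3 had no value in any library, and Elovl7 had one only in the neuron-labelled control.

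Scd1 had the largest insulin difference of the genes that entered a count. It was at 0.832, 1.44 and 1.84 FPKM at 0, 6 and 12 h in the astrocyte-labelled libraries, with each insulin library above the control. The difference was 0.79 at 6 h and 1.15 at 12 h, so Scd1 was higher by the 2-fold size at 12 h alone. It passed the 1 FPKM floor only through the insulin libraries. On log2(FPKM + 1) the 12 h difference was 0.63. Neuron-labelled libraries had Scd1 at 5.09, 6.94 and 7.76 FPKM, again with both insulin libraries above the control, by 0.45 and 0.61. At 12 h 25 of 6221 genes in the astrocyte-labelled and 653 of 6641 in the neuron-labelled cultures had a larger difference than Scd1.

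The front-end desaturases showed smaller differences. Fads1, the delta-5 desaturase, was at 4.88, 5.19 and 5.04 FPKM in the astrocyte-labelled libraries and at 14.9, 15.2 and 14.1 FPKM in the neuron-labelled ones. Its 4 insulin differences lay between -0.08 and 0.09, at or below the all-gene medians. Fads2, the delta-6 desaturase, was at 1.93, 2.06 and 1.90 FPKM in the astrocyte-labelled libraries, with differences of 0.09 and -0.03. In the neuron-labelled libraries it was at 3.42, 3.57 and 4.89 FPKM, with 0.06 at 6 h and 0.52 at 12 h, and the 12 h library stood apart from the other two.

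Counted over the 7 genes at 1 FPKM or more, 1 was at least 2-fold higher after insulin, Scd1 in the astrocyte-labelled cultures at 12 h. The background there was 0.611% of 6221 genes, and Scd1 passed the floor there only through the insulin library. In the other 3 insulin comparisons 0 of 7 were 2-fold higher, against 1.05% of all genes in the astrocyte-labelled cultures at 6 h, 1.6% in the neuron-labelled cultures at 6 h and 2.39% at 12 h. None of the 7 was 2-fold lower in any of the 4, where the background was 0.886% and 0.916% in the astrocyte-labelled and 1.29% and 1.45% in the neuron-labelled cultures at 6 h and 12 h. At a size of 1.5-fold, Srebf1 and Scd1 were higher in the astrocyte-labelled cultures at 6 h (2 of 7, background 4.56%) and Scd1 at 12 h (1 of 7, background 3.68%). In the neuron-labelled cultures 0 of 7 were 1.5-fold higher at 6 h (background 8.28%), and 1 of 7, Scd1, at 12 h (background 10.7%). These counts are of few genes and are given as a description.

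The median over the 7 genes was 0.23 at 6 h and 0.33 at 12 h in the astrocyte-labelled cultures, against 0.09 and 0.10 over all genes compared. In the neuron-labelled cultures it was 0.23 and 0.35, against 0.14 and 0.14. In the astrocyte-labelled cultures 5 of 7 at 6 h and 4 of 7 at 12 h were above the median of all genes, and in the neuron-labelled cultures 4 of 7 and 5 of 7, with 50% of all genes above it by construction. Over all 10 genes without a floor the medians were 0.22 and 0.36 in the astrocyte-labelled and 0.30 and 0.53 in the neuron-labelled cultures, against 0.16, 0.18, 0.29 and 0.28 over all genes without a floor. Fasn, Acly, Scd1 and Elovl5 were above 0 in all 4 insulin comparisons, 4 of 7, a pattern that 35% of 5207 genes showed. Scd1 is among the 7 in the astrocyte-labelled cultures only through its insulin libraries. The 6 h and 12 h differences of a culture share their control library. The insulin libraries also had more symbols with a value than their control, and under shared quantiles this goes with higher values at a given rank.

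**Figure D2:**
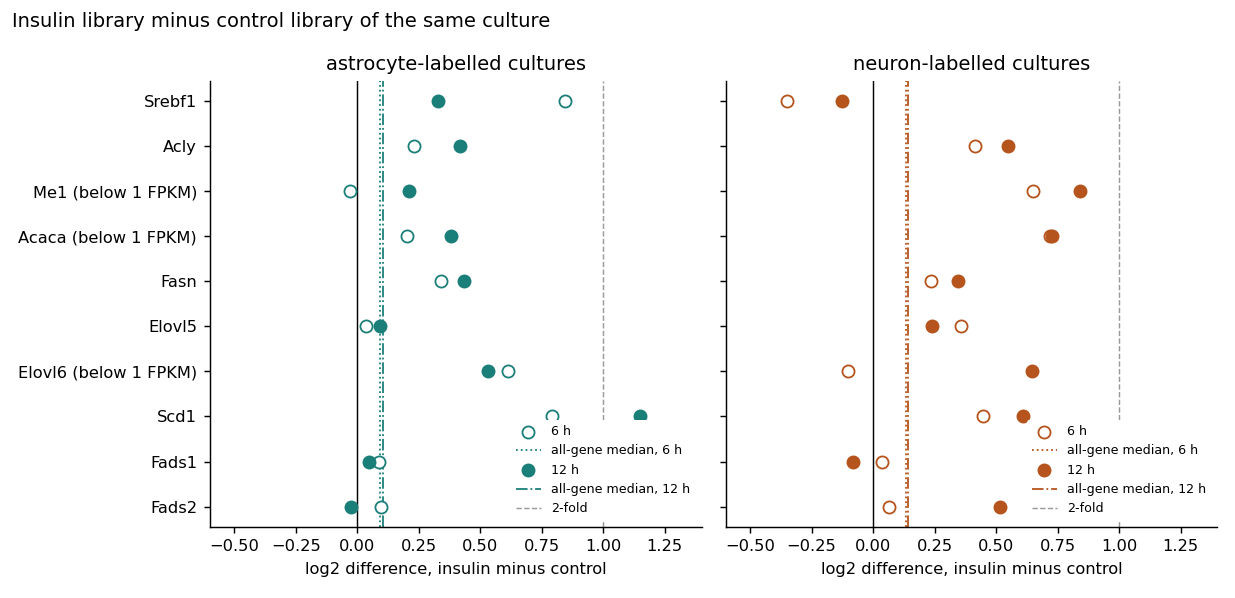
Log2 difference of the insulin library minus the control library for each gene, open circles at 6 h and filled circles at 12 h, in astrocyte-labelled (left) and neuron-labelled (right) cultures. Coloured vertical lines are the medians of all genes compared (0.09 and 0.10 on the left, 0.14 and 0.14 on the right) and the dashed line is 2-fold, which Scd1 passes at 12 h on the left. Genes marked as below 1 FPKM entered no count.

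A test was possible only across the cultures. A limma fit with culture type as a block and the 3 times as levels left 2 residual degrees of freedom over the 6 libraries, and it takes each insulin difference as equal in both cultures. The fit held 5207 genes with a value in every library and 1 FPKM or more in at least 1 library of each culture. Of these, 2 had a limma Benjamini-Hochberg adjusted p under 0.05 at 6 h and 2 at 12 h, 0.0384% each, all lower after insulin. At an unadjusted p under 0.05 limma had 427 and 605 of the 5207. Among these were 1 of the 7 genes at 6 h (Scd1) and 3 at 12 h (Scd1, Acly and Fasn). None of the 7 had a limma adjusted p under 0.05 at either time. In the astrocyte-labelled cultures Scd1 met the floor of this fit only through its insulin libraries. Scd1 had the lowest unadjusted p of the 7, with a fitted difference of 0.62 ± 0.17 (SE) at 6 h (limma adjusted p = 0.491) and 0.88 ± 0.17 at 12 h (adjusted p = 0.418), and was higher in 4 of 4 insulin libraries. At 12 h Acly had 0.48 ± 0.13 and Fasn 0.39 ± 0.13, each with a limma adjusted p of 0.418 and higher in 4 of 4. For Srebf1 the opposite signs of the cultures enter the error, with 0.25 ± 0.28 at 6 h and 0.10 ± 0.28 at 12 h (limma adjusted p = 0.735 and 0.867).

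The later insulin library was also set against the earlier one. Of the 7 genes 0 were 2-fold higher or lower in either culture, against 0.256% higher and 0.511% lower of all genes in the astrocyte-labelled and 0.555% and 0.51% in the neuron-labelled cultures. The median over the 7 was 0.06, against 0.02 over all genes, in the astrocyte-labelled cultures and 0.14, against -0.01, in the neuron-labelled cultures. Scd1 was above its 6 h level at 12 h by 0.36 and 0.16, and Fads2 in the neuron-labelled cultures by 0.45. The Srebf1 difference of -0.51 in the astrocyte-labelled cultures was the lowest of the 7 there.

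Between the controls, the 10 genes spread widely. Srebf1 was at 1.48 FPKM in the astrocyte-labelled library, against 44.0 FPKM in the neuron-labelled one, a difference of -4.90. Scd1 was at 0.832 and 5.09 FPKM (-2.61), and Fads1 at 4.88 and 14.9 FPKM (-1.61). These 3 of the 7 counted genes were at least 2-fold lower in the astrocyte-labelled control, against a background of 21.9% of 7146 genes, and 0 of 7 were 2-fold higher, against 18.7%. Fads2 (-0.82) and Fasn (-0.58) were lower by less than 2-fold. Acly (0.19) and Elovl5 (-0.03) were at nearly equal levels. The median over the 7 was -0.82 and over all genes -0.10. Without the floor, Me1 was at 0.766 FPKM in the astrocyte-labelled library, against 0.357 FPKM in the neuron-labelled one (1.10), the only gene of the 10 past 2-fold in that direction. The astrocyte, oligodendrocyte-lineage and neuron marker sums given above were lower in the astrocyte-labelled control as well. The pericyte and smooth muscle sum and the fibroblast sum were higher there. The part of any of these cell types in these differences was not tested.

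**Figure D3:**
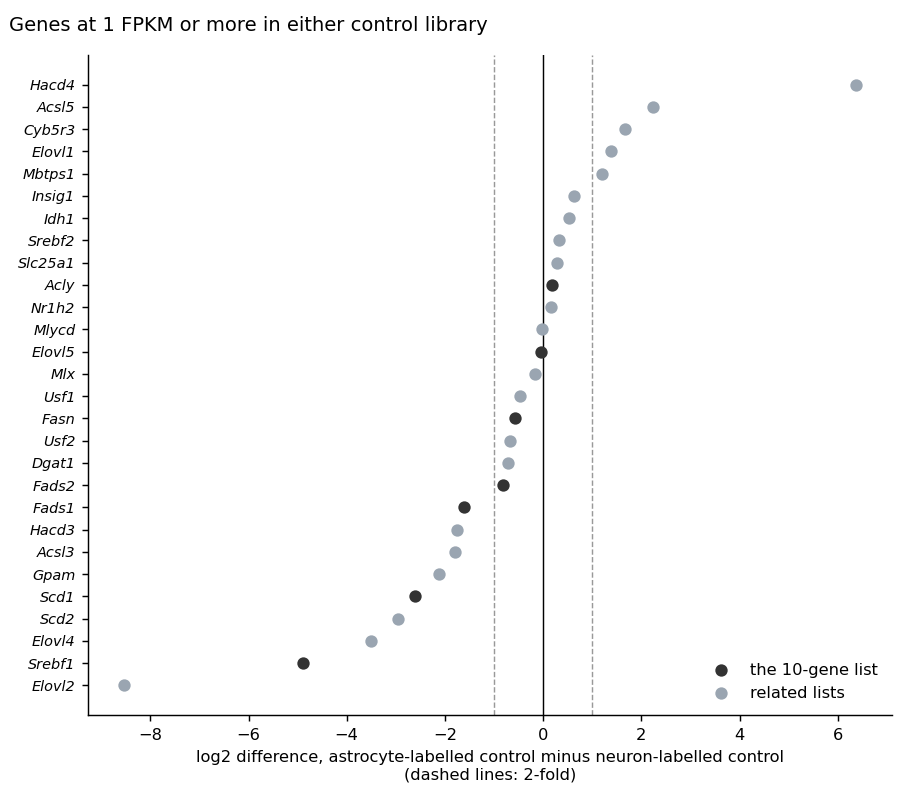
Log2 difference of the astrocyte-labelled control minus the neuron-labelled control for genes at 1 FPKM or more in either, with the 10-gene list in dark and the related lists in grey. Dashed lines mark 2-fold. Srebf1 (-4.90), Scd1 (-2.61) and Fads1 (-1.61) lie left of the lower line, and Acly and Elovl5 lie near 0.

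Around the 10 genes, 7 lists of related genes held 52 symbols, of which 50 were in the table. After insulin 0 were 2-fold higher or lower of the 18 counted in the astrocyte-labelled cultures at each time and of the 20 and 19 counted in the neuron-labelled cultures at 6 h and 12 h. Their medians were 0.13 and 0.20 in the astrocyte-labelled and 0.07 and 0.23 in the neuron-labelled cultures. Insig1, which holds the SREBP precursor in the endoplasmic reticulum and is itself an SREBP target, was at 9.46, 10.9 and 13.1 FPKM at 0, 6 and 12 h in the astrocyte-labelled libraries. It was at 6.12, 7.90 and 8.09 FPKM in the neuron-labelled ones, so the control was lowest in both. Srebf2, the regulator of cholesterol genes, was at 1.21, 1.27 and 1.49 FPKM and at 0.964, 1.03 and 1.19 FPKM. Mbtps1, on the same SREBP processing list, was at 1.94, 1.67 and 1.71 FPKM and at 0.839, 0.793 and 0.872 FPKM. Without a floor, 3 of the 6 genes of that list were above 0 at each time in the astrocyte-labelled cultures. In the neuron-labelled cultures 4 were at 6 h and 5 at 12 h.

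Among lipogenic regulators, Mlx, the partner of ChREBP, was at 3.36, 4.73 and 5.24 FPKM in the astrocyte-labelled libraries and at 3.74, 4.74 and 5.18 FPKM in the neuron-labelled ones. Mlxipl, which encodes ChREBP, was below 0.01 FPKM wherever it had a value. Thrsp, a gene of lipogenic tissues, was at 0.00689, 0.0391 and 0.0433 FPKM and at 0.0266, 0.0931 and 0.0572 FPKM, too low to be counted. Acss2, which makes acetyl-CoA from acetate, was at 0.167, 0.251 and 0.298 FPKM and at 0.167, 0.253 and 0.272 FPKM, below the floor with the control lowest in both cultures. Acacb, the mitochondrial paralogue of Acaca, stayed below 0.1 FPKM.

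Among genes that use or store the products, Dgat1, which makes triglyceride, was at 0.962, 1.38 and 1.68 FPKM in the astrocyte-labelled libraries. In the neuron-labelled libraries it was at 1.58, 1.25 and 1.41 FPKM, with the control highest. Acsl4, which activates polyunsaturated fatty acids, was at 0.680, 0.803 and 0.985 FPKM and at 0.821, 1.29 and 0.961 FPKM. Between the controls 5 of the 22 related genes counted reached 2-fold with the higher level in the astrocyte-labelled one (Hacd4, Acsl5, Cyb5r3, Elovl1 and Mbtps1). Another 6 were at least 2-fold lower (Elovl2, Elovl4, Scd2, Gpam, Acsl3 and Hacd3), with backgrounds of 18.7% and 21.9%.

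Scd1 was the minor desaturase transcript beside Scd2, whose row carries the older symbol Scd. Scd2 was at 40.0, 44.4 and 57.1 FPKM at 0, 6 and 12 h in the astrocyte-labelled libraries and at 311, 307 and 283 FPKM in the neuron-labelled ones. Scd1 made up 2.03%, 3.14% and 3.13% of the summed level of the pair in the astrocyte-labelled libraries. The neuron-labelled shares were 1.61%, 2.21% and 2.67%, so the control was lowest in both. The paralogues are alike in sequence, and how reads common to them were assigned is not given in the sources used here, so these shares are uncertain. Scd4 was below 0.03 FPKM in every library, and the symbol Scd3 had no row in the deposited table. Fads2 made up 28.4%, 28.4% and 27.4% of the Fads1 and Fads2 sum in the astrocyte-labelled libraries and 18.7%, 19.0% and 25.8% in the neuron-labelled ones. Fads3 was below 0.02 FPKM throughout, and Fads6 was at 0.303, 0.316 and 0.245 FPKM in the neuron-labelled libraries. Srebf1 made up 55.1%, 67.6% and 55.4% of the Srebf1 and Srebf2 sum in the astrocyte-labelled libraries and 97.9%, 97.1% and 97.1% in the neuron-labelled ones.

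**Figure D4:**
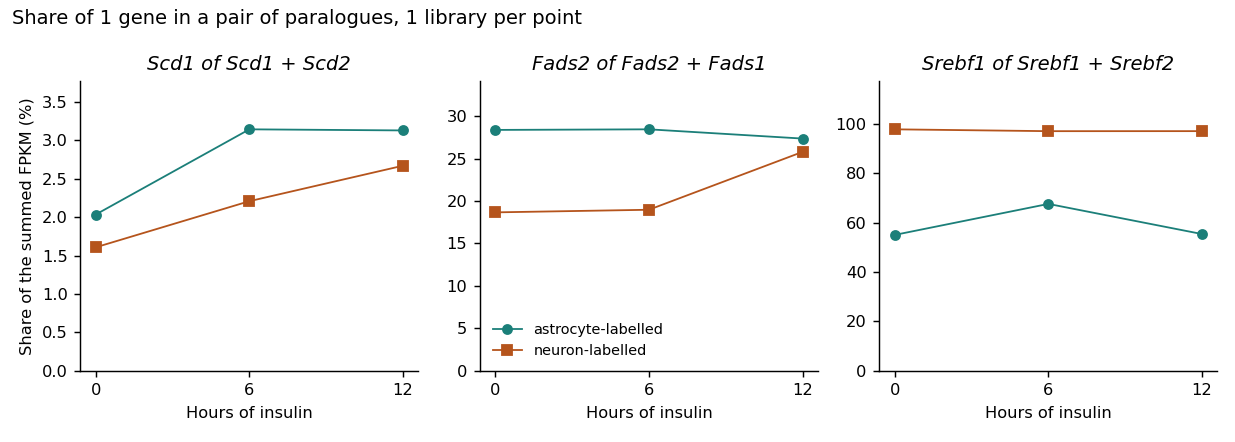
Share (%) of one gene in the summed FPKM of a pair of paralogues against hours of insulin, 1 library per point, circles astrocyte-labelled and squares neuron-labelled. Scd1 made up 1.61% to 3.14% of its pair with Scd2, and the Fads2 share in the neuron-labelled cultures was 25.8% at 12 h, against 18.7% in the control.

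Genes with the most similar pattern were sought among 2530 genes that had no blank cell and reached 5 FPKM in at least 1 of the 6 libraries, by the Euclidean distance between log2 values centred on each gene's mean. Nearest to Srebf1 were Rab3a, Apc2, Hmox1, Csdc2 and Cnih2, at distances from 0.54 to 0.66. Symbols spelled like locus identifiers or small RNAs were passed over, 0 for Srebf1, 3 for Fasn and 1 for Scd1. Nearest to Fasn among the rest were Rnps1, Tmem208, Psmd3, Ppp1cc and Sfpq, at 0.16 to 0.19. Nearest to Scd1 among the rest were the rows Tubb2a_2 and Tubb2a_1, then Ddit4, Dbi and S1pr1, at 0.44 to 0.71. The gap between the cultures enters these distances together with the insulin differences. Hmox1 was at 111, 139 and 143 FPKM at 0, 6 and 12 h in the neuron-labelled libraries, where Srebf1 was highest in the control. The 6 libraries are a small base for such a ranking.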

How the data were processed

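Total RNA of 6 cultures, 1 library per group, had been sequenced with a stranded, ribosomal RNA-depleted protocol, per the labels' protocols. The authors deposited log2 FPKM values, quantile-normalised across the 6 libraries, per the file's name and the shared quantiles of its columns. Base 2 was settled from Rn45s, 8.679 kb long in RefSeq, whose highest value would as a natural log exceed all fragments. Per the submitters' processing notes, the build was Rnor 6.0 and the tools included Partek 6.5 and bcl2fastq 2.17.1.14. The aligner and the annotation version were not given in the sources used here.

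Libraries were matched through their description labels, and 0 per-sample columns were left unused. Blank cells were treated as no value. For 2 repeated symbols only the more abundant row was used. Differences, counts and medians were computed with Python 3.11.15 and pandas 2.3.3, and the counting was tested on simulated data. With 1 library per group no test within a culture was possible. Across the cultures limma 3.58.1 (R 4.3.3, with an intensity trend) was fitted to the deposited log2 values, additive in culture type and time, a choice made after seeing the data.

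The 10 genes and the 7 related lists were chosen with earlier results of these data known. All 10 are named. Related genes at 1 FPKM or more are named when they reached 2-fold or were among the 2 largest of their list. Paralogues are named at any level, and others were chosen after their values were seen. Some genes below 1 FPKM with large differences, such as Acsl6, Pnpla3, Agpat2 and Nr1h3, are named only here. A related gene that entered the counts is not reported here or plotted. The stearoyl-CoA desaturase and Hacd rows carry older symbols, matched through RefSeq synonyms. Promoters come from RefSeq, GRCr8. Alternatives were another pseudocount, centring, repeated quantile normalisation, other floors and a 1.5-fold size.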

Additional observations from a re-analysis of the deposited data

Results flagged for a closer look

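Srebf1 lay on opposite sides of its control in the 2 cultures at both times. In the astrocyte-labelled cultures its log2 differences from the control were 0.84 at 6 h and 0.33 at 12 h, and in the neuron-labelled cultures they were -0.35 and -0.13. The difference between the cultures was not tested. Of 7 genes of the list at 1 FPKM or more, 1 showed this pattern, against 22.3% of 5207 genes. Both signs held with log2(FPKM + 1), with centring and with the repeated quantile normalisation, with values from 0.21 to 0.84 in the astrocyte-labelled and from -0.49 to -0.12 in the neuron-labelled cultures. Of the 15 related genes at 1 FPKM or more in all 4 insulin comparisons, 4 (Usf2, Idh1, Scd2 and Dgat1) also had opposite signs at both times, some by little, as Usf2 with -0.01 at 6 h in the neuron-labelled cultures. With no floor 11 of the 46 related genes with all values did, and the share of all genes without a floor was not computed.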

How the results depend on the processing

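The 2-fold size and the 1 FPKM floor set the counts. The 1 gene higher in the astrocyte-labelled cultures at 12 h, Scd1, became 0 with log2(FPKM + 1) and 0 with a floor of 5 FPKM, and stayed 1 under the other alternatives. With a size of 1.5-fold the counts of higher genes after insulin became 2 in the astrocyte-labelled cultures at 6 h and 1 in the neuron-labelled cultures at 12 h. With no floor 1 gene, Me1, was higher in the astrocyte-labelled control, where the main count was 0. The other counts of the 10 genes stayed within 1.5 times under the 6 alternatives. Of 70 single-gene differences 62 kept their sign with the pseudocount, centring and repeated quantiles. Those that did not were between -0.10 and 0.09 except Acaca in the astrocyte-labelled cultures at 6 h, which ran from -0.06 to 0.20, and none was 2-fold. Over all genes, 65 were 2-fold higher and 55 lower in the astrocyte-labelled cultures at 6 h (41 and 66 when centred), and 38 and 57 at 12 h (28 and 71). In the neuron-labelled cultures these counts were 106 and 85 at 6 h (71 and 106) and 159 and 96 at 12 h (109 and 133). The limma fit across the cultures called 0 of the 7 genes also without an intensity trend and with repeated quantiles, and 0 of the 10 with no floor, with a lowest adjusted p among them of 0.424 to 0.733. With no floor limma called 0 of 19471 genes at each time (1750 and 2221 at an unadjusted p under 0.05), against 2. No paired analysis was possible because every group was 1 library. The limma fit has culture type as its block, and the culture types differ in label and medium, so they are not replicates of each other. With no counts, the precision of low levels, such as those of Elovl6, is unknown.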
